A study of Mus musculus with 4 samples.

Results

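The genes described here are NRF2, its inhibitor KEAP1 and a set of glutathione, thioredoxin and detoxification genes that NRF2 is known to control. The 10 members were chosen by name, with earlier results of these data known: Nfe2l2 (the gene of NRF2), Keap1, Gclm, Gclc, Gsr, Srxn1, Txnrd1, Txn1, Nqo1 and Hmox1. They are 10 of the 12565 genes that passed the filter on dim signals in gastrocnemius muscle of the mouse. The muscle came from control mice with floxed FoxO1, FoxO3 and FoxO4 alleles (FoxO1,3,4 f/f, called wild type in the sample labels) and from knockout mice that carried the same floxed alleles and a Cre recombinase under the MLC1f promoter (FoxO1,3,4-/-). Both genotypes were male, from a cross of C57BL/6N and FVBN, and were either fed or starved for 24 h. The age given for the mice of the study as a whole is 2 to 4 months. The MLC1f promoter is active in fast fibres, so that slow fibres and the cells between the fibres keep their FoxO genes.

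By the study's methods, RNA of 6 muscles from 3 mice was pooled for each condition and put on 1 Affymetrix array, which makes 4 arrays in all. A figure legend of the study counts the muscles differently, and the methods are followed here. A gene was read through a probe set, a group of short probes summarised by the authors into 1 MAS 5.0 signal, a linear measure of their brightness, and signals are compared between arrays and not between genes. No condition has a replicate, and the comparisons below are therefore ratios of signals without a test, an SD or a p-value. A ratio of at least 1.5 was called up and a ratio of at most its inverse, 0.667, was called down. Such a call compares pools and does not tell whether mice differ. In pooled muscle, fewer cells of a type and less RNA per cell cannot be told apart. The knockout arrays were dimmer as a whole, with a median log2 ratio of knockout over control of -0.20 in fed and -0.16 in starved muscle over all 12565 genes. The targeted Foxo4 fell from 296.9 to 31.3 in fed and from 291.3 to 34.3 in starved muscle. Foxo1 stood at 303.8, 554.4, 185.2 and 165.5 on the fed control, starved control, fed knockout and starved knockout arrays. Foxo3, at 250.1, 477.8, 297.3 and 460.9 in the same order, did not follow the genotype, and the place of its probes relative to the deleted part was not analysed here. Fast fibre markers, which define this muscle, differed little, with summed signals of 132179, 124589, 129414 and 129157.

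NRF2 is a transcription factor that is made and destroyed continually. KEAP1 binds it and hands it to a CUL3 ubiquitin ligase, and oxidants or electrophiles that react with cysteines of KEAP1 let NRF2 escape. It then pairs with a small MAF protein and binds antioxidant response elements near the genes for glutathione synthesis, for the reduction of thioredoxin and for the removal of quinones and haem. Glutathione and thioredoxin are the main thiol systems that keep proteins of the muscle fibre reduced and peroxides low.

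In control muscle Gclm, Srxn1 and Gsr rose by 2.12-fold, 1.94-fold and 1.54-fold on starvation. In knockout muscle none of the 10 members passed the threshold in either direction. On the starved arrays 8 of the 10 were at least 1.5-fold lower in the knockout, with Gclm at 0.315 and Srxn1 at 0.352 of the control signal, where 14.6% of all genes were. Keap1 and Nqo1 were the members that did not reach this difference with the signals as deposited. The knockout arrays were dimmer as a whole. With arrays brought to a common scale this count was 6 of 10, where 8.27% to 8.32% of all genes were called down. Gclc and Txn1 then fell short as well.

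The promoters of these genes are shown here because NRF2 acts through a short element in DNA, whose letters can be placed relative to each start site. RefSeq windows from 250 bases before to 50 bases after the transcription start site (GRCm38.p6) were at hand for 7 of the 10 members, in 9 windows. Gclc, Gsr and Hmox1 have no entry. Each was searched on both strands for TGACNNNGC, the core of the antioxidant response element, for TGAGTCA, the AP-1 site, and for GTAAACA, a FoxO site. The 4 windows that hold the antioxidant core are printed from 5′ to 3′ on the strand of the gene, with the matched letters in capitals. They are Gclm on chr3:122245307-122245606 (plus strand), Srxn1 on chr2:152105274-152105573 (plus strand), Txnrd1 on chr10:82858956-82859255 (plus strand) and Nfe2l2 on chr2:75704614-75704913 (minus strand).
Gclm: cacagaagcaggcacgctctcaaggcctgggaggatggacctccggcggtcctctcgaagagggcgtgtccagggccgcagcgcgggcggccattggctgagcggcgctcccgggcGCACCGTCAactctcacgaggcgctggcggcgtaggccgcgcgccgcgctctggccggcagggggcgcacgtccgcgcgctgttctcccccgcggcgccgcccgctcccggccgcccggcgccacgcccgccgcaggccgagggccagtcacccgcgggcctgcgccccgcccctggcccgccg
Srxn1: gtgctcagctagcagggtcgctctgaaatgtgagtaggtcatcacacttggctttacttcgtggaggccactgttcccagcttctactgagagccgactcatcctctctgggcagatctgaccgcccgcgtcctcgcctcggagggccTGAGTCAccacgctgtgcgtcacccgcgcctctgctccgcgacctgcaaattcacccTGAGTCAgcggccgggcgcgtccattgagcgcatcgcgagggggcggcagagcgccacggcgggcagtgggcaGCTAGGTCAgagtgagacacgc
Txnrd1: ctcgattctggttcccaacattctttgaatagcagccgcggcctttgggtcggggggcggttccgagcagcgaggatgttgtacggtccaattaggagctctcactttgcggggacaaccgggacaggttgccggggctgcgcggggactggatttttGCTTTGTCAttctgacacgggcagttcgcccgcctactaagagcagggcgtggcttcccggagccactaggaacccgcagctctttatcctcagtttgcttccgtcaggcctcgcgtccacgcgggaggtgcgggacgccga
Nfe2l2: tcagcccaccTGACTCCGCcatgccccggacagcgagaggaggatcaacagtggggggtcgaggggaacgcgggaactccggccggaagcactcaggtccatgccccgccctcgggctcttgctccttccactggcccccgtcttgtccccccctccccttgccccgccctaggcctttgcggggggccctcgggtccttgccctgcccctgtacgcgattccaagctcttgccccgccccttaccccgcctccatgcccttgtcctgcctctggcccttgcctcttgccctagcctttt

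In Gclm the core was read on the opposite strand, at -134 to -126 from the start site. Srxn1 held it on the opposite strand at 29 to 37 bases after the start and had the AP-1 letters at -102 to -96 and at -45 to -39. Txnrd1 held the core on the opposite strand at -92 to -84, and Nfe2l2 on its own strand at -240 to -232. The core is thus present in 4 of 9 member windows, against 12.4% of all 32851 windows of this length. Txnrd1 has more than 1 of the 9 windows, and those starting at 82833701 and 82860091 do not hold the core. Counted by gene, the core is in 4 of the 7 members with a window. The AP-1 letters stood in 1 of the 9 windows and in 5.20% of all windows, and the FoxO letters in 0 of the 9 and in 3.65% of all. The matches do not overlap each other. Matches to letters are a description of these windows and do not show binding, and elements farther away were not searched.

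Nfe2l2, which codes for NRF2 itself, gave signals of 1014.6 (fed control), 1417.6 (starved control), 905.9 (fed knockout) and 823.8 (starved knockout). The starved control array was the highest and the starved knockout array the lowest. The ratio of starved to fed was 1.40 in control muscle, short of the threshold, and 0.909 in knockout muscle. The fold of the control was thus 0.62 higher on the log2 scale, which is more than 1.5-fold. The starved knockout array reached 0.581 of the starved control array, whereas the fed arrays stood at a ratio of 0.893. Nfe2l2 and Txn1 are also among the genes the study picked for display. A further probe set of Nfe2l2 was too dim to pass the filter, at 15.5, 19.9, 11.2 and 17.3.

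Keap1, the adaptor that presents NRF2 for degradation, stood at 474.6, 553.2, 391.2 and 395.4 on the arrays in the same order. Its control signals lay above its knockout signals, but no ratio passed 1.5. Starved over fed was 1.17 with FoxO and 1.01 without it, and the starved knockout array stood at 0.715 of the starved control array. The other Keap1 probe set read 148.5, 184.2, 175.5 and 144.0. This was the probe set, among the 20 of the members past the filter, that was higher in fed knockout than in fed control muscle, by 0.24 on the log2 scale.

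**Figure D1:**
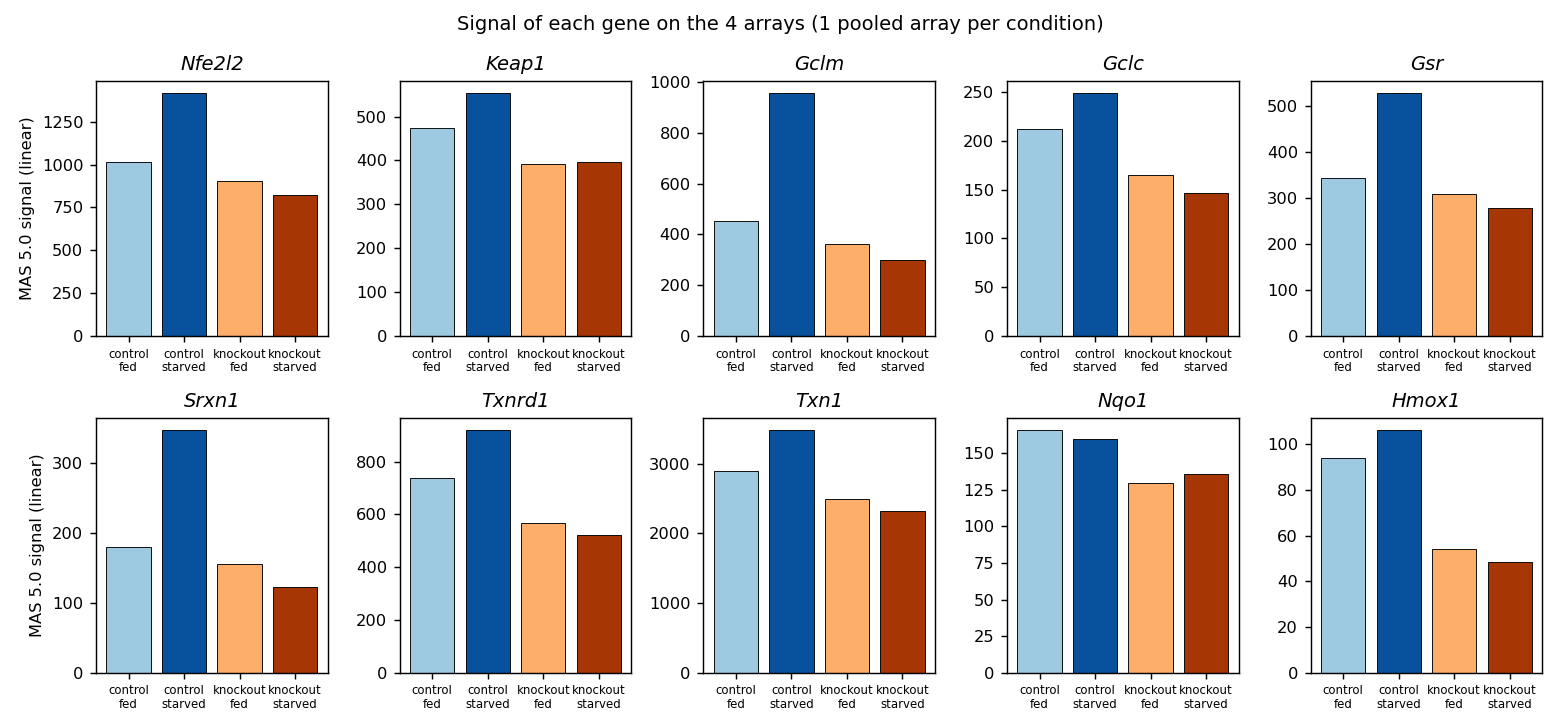
Linear MAS 5.0 signal (vertical axis, from 0, with its own scale in each panel) of the 10 genes on the 4 arrays, 1 pooled array per bar, without error bars because no condition was repeated. The bar of starved control muscle is the tallest in 9 of the 10 panels, and both control bars stand above both knockout bars in all 10 with the signals as deposited.

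Glutathione is made from glutamate, cysteine and glycine, and its first and rate-limiting step is carried out by glutamate-cysteine ligase, which joins a catalytic subunit (Gclc) and a modifier subunit (Gclm). Gclm had a signal of 451.1 in fed control, 955.9 in starved control, 363.3 in fed knockout and 300.8 in starved knockout muscle. The starved control array was the highest, with the other arrays between 300.8 and 451.1. On the log2 scale, starvation changed it by 1.08 in control muscle and by -0.27 in the knockout, a difference of 1.36. The other Gclm probe set gave the same picture at a lower signal, with 82.3, 175.2, 60.7 and 59.9 in the same order and log2 fold changes of 1.09 and -0.02.

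The catalytic subunit Gclc had smaller ratios. Its signals were 212.6, 249.2, 164.8 and 146.6, and starvation gave ratios of 1.17 in control and 0.890 in knockout muscle, both under the threshold. Starved knockout muscle held 0.588 of the signal of starved control muscle, which passed it. On the other Gclc probe set, at 176.5, 206.2, 147.2 and 170.1, starved over fed gave log2 values of 0.22 for the control and 0.21 for the knockout. The probe sets of Gclc therefore disagree on whether the genotypes responded differently.

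Gsr codes for glutathione reductase, which returns oxidised glutathione to its reduced form with NADPH. It read 342.2 in fed control, 527.7 in starved control, 308.2 in fed knockout and 278.0 in starved knockout muscle. Starved control muscle was again the high array, and the fed arrays were alike, at a knockout to control ratio of 0.901. Starved over fed was 0.62 on the log2 scale for the control and -0.15 for the knockout, and the starved knockout array reached 0.527 of the starved control array. The dimmer Gsr probe set, at 170.4, 219.2, 139.4 and 170.1, gave 0.36 in control and 0.29 in knockout muscle. The call of Gsr thus rests on its brighter probe set.

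Srxn1 codes for sulfiredoxin, which repairs peroxiredoxins whose active cysteine has been overoxidised. Its signals were 178.9 in fed control, 346.9 in starved control, 155.5 in fed knockout and 122.0 in starved knockout muscle. The starved control array was the high one and the starved knockout array the low one, as for Gclm. On the log2 scale, starved over fed was 0.96 for the control and -0.35 for the knockout, which differ by 1.31. Of the 3 further Srxn1 probe sets, the brighter ones gave 1.14 in control against -0.05 in knockout muscle and 0.71 against 0.10. The dimmest, at 31.3, 34.5, 6.0 and 20.2, gave 0.14 and 1.75, the latter from a fed knockout signal of 6.0.

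Thioredoxin (Txn1) reduces disulfides in proteins, peroxiredoxins included, and thioredoxin reductase (Txnrd1) restores it with NADPH. Txnrd1 was at 736.5, 920.7, 567.1 and 521.9 on the fed control, starved control, fed knockout and starved knockout arrays. Txn1 was at 2888.5, 3484.1, 2485.5 and 2318.3 in the same order. The arrays ranked alike for both genes, with starved control highest and starved knockout lowest. In control muscle the starved to fed ratio was 1.25 for Txnrd1 and 1.21 for Txn1, and in knockout muscle it was 0.920 and 0.933, all under the threshold. Starved knockout over starved control gave 0.567 for Txnrd1, a call, and 0.665 for Txn1, which lies just past 0.667. The remaining probe sets of these genes were dim. For Txnrd1 the brighter of these read 56.3, 38.3, 34.3 and 25.4, with a log2 fold change of -0.56 in control muscle. The dimmer read 23, 26.2, 9.9 and 9.8. For Txn1 the other probe set read 28.0, 22.6, 21.4 and 2.2.

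Nqo1 and Hmox1 are classical NRF2 targets outside the thiol systems. Nqo1, the quinone reductase, was at 166.1 in fed control, 159.8 in starved control, 129.7 in fed knockout and 135.8 in starved knockout muscle. It was the member that was not highest on the starved control array. Its log2 fold changes of -0.06 in control and 0.07 in knockout muscle were the lowest in control and the highest in knockout muscle among the 10, and the sign in control muscle turned to 0.0027 with arrays scaled to the same trimmed mean and to 0.03 with quantile normalization.

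Hmox1, the inducible haem oxygenase, was at 94.0, 106.3, 54.0 and 48.3. It was the 1 member of 10 called down in fed knockout muscle, at 0.574 of fed control, where 11.3% of all genes were called down and 3.38% up. In starved muscle the ratio was 0.454. Starvation itself gave 1.13 in control and 0.894 in knockout muscle. The signal of Hmox1 stayed below the 75th percentile of every array, where scatter between probe sets is wider. Macrophages express Hmox1 strongly, and the summed signal of 9 macrophage markers of 9 chosen was 7210.2, 6670, 5585.1 and 4948.4 on the arrays in the same order. It stood at 0.775 of control in fed and at 0.742 in starved knockout muscle. Of these markers 9 of 9 were lower in the fed and 8 of 9 in the starved knockout, and none was listed at 0. Of all 12565 genes, 9793 were lower in the fed and 8435 in the starved knockout. The part of macrophages in the Hmox1 signal was not tested.

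Counted over the set, starvation of control muscle called 3 of the 10 members up and 0 down, where 9.23% of all genes were called up and 14.2% down. In knockout muscle it called 0 up and 0 down, where 7.39% of all genes were up and 9.45% down. Gclm, Srxn1 and Gsr were up in control and under the threshold in knockout muscle, as were 6.6% of all genes. Starved over fed was higher with FoxO than without for 9 of the 10 members and for 45.7% of all genes. For Gclm, Srxn1, Gsr and Nfe2l2 the fold of the control was at least 1.5 times that of the knockout, which held for 10.4% of all genes. The median log2 fold change of the members was 0.30 in control and -0.14 in knockout muscle, against -0.11 and -0.06 over all genes. Because the members were chosen with earlier results of these data known, the shares of all genes serve as description only.

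**Figure D2:**
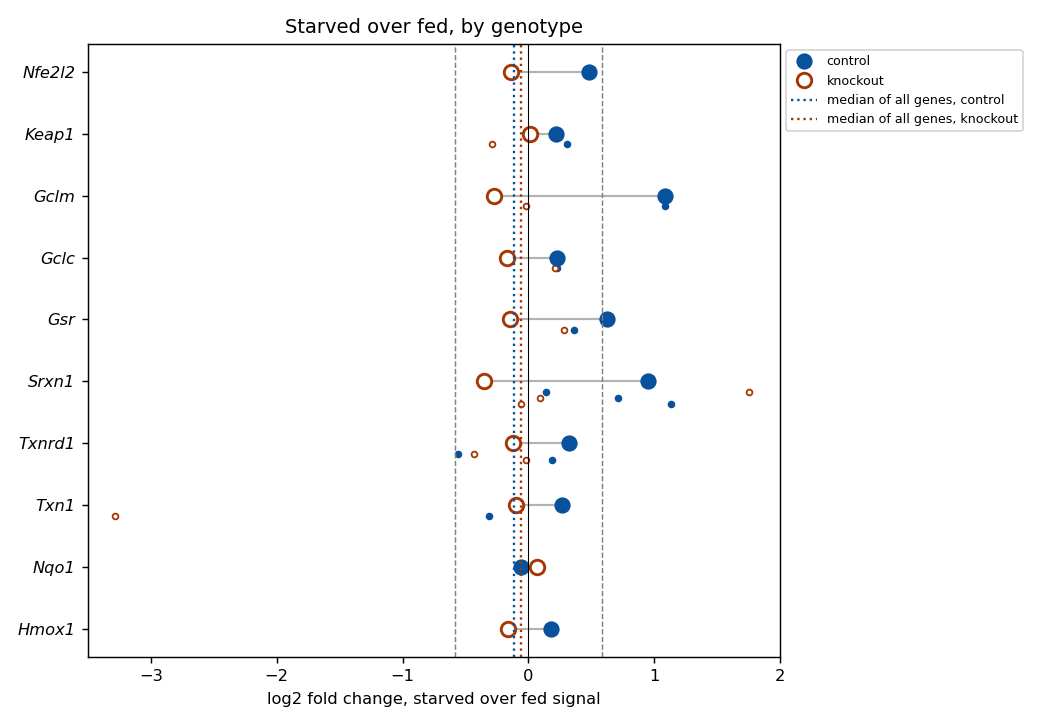
Log2 fold change of starved over fed signal (horizontal axis) for each of the 10 genes in control (filled) and knockout (open) muscle. Large symbols show the probe set that stands for the gene and small symbols its other probe sets past the filter; dashed lines mark 1.5-fold and dotted lines the median of all genes. Gclm, Srxn1 and Gsr pass the upper line in control muscle, and no large symbol of knockout muscle passes either line.

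The genotypes were compared in fed and in starved muscle. With food, 1 of 10 members was called down and 0 up, and the members' median log2 ratio of knockout over control was -0.30, close to the -0.20 of all genes. After starvation 8 of 10 were called down and 0 up, where 14.6% of all genes were down and 6.39% up, and the median was -0.80 against -0.16 for all genes. With arrays scaled to the same median, the same trimmed mean or the same quantiles, 6 of the 10 were called down after starvation, since Gclc and Txn1 fell short, and all genes were then called down in 8.27% to 8.32% and up in 10.1% to 10.2%. In fed muscle these scalings turned the calls of all genes to 6.26% to 7.19% down and 4.78% to 5.36% up.

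All 10 members were lower on the starved knockout than on the starved control array under each of these scalings. With the signals as deposited, so were 8435 of all 12565 genes. In fed muscle all 10 members were lower with the signals as deposited, as were 9793 of all 12565 genes. Under the trimmed mean, Nfe2l2 and Gsr turned to log2 ratios of 0.03 and 0.04 in fed muscle. Under quantile normalization, Nfe2l2, Gsr and Srxn1 turned to 0.02, 0.04 and 0.02. The starved control array gave the highest signal for 9 of 10 members and for 32% of all genes. Both control arrays lay above both knockout arrays for 10 of 10 members and for 36.9% of all genes with the signals as deposited. For the members this count was 8 of 10 under the trimmed mean and 6 of 10 under quantile normalization. The matching shares of all genes under these scalings were not computed.

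**Figure D3:**
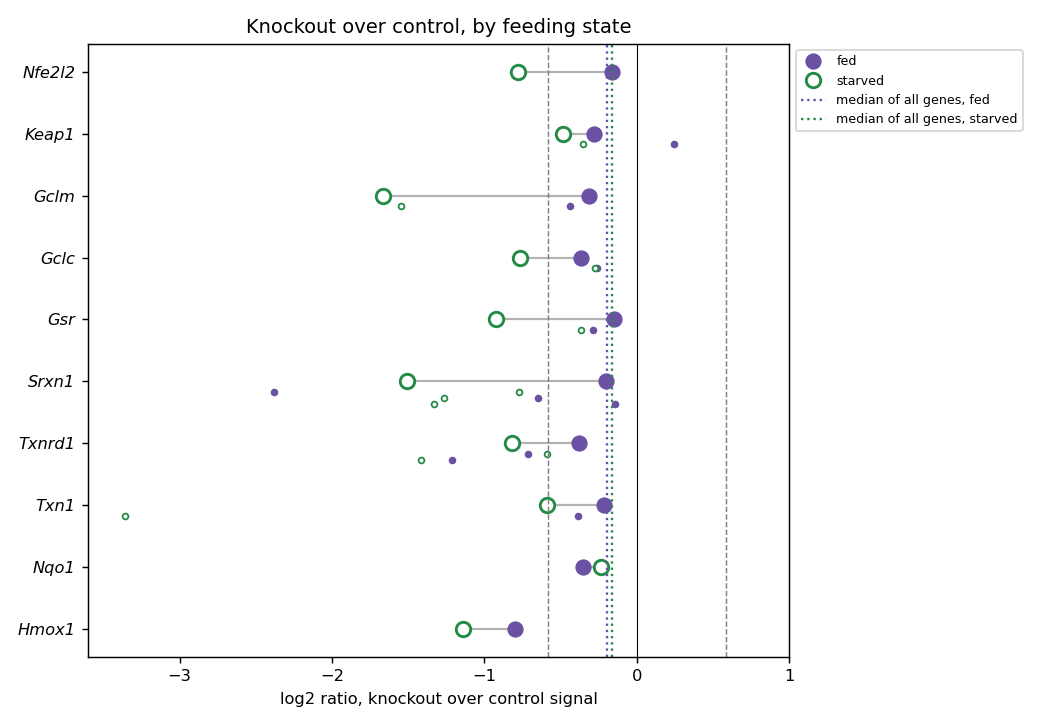
Log2 ratio of knockout over control signal (horizontal axis) for each of the 10 genes in fed (filled) and starved (open) muscle, with small symbols for other probe sets past the filter, dashed lines at 1.5-fold and dotted lines at the median of all genes. In starved muscle 8 large symbols lie beyond the lower line, and Hmox1 is the gene beyond it in fed muscle; under other array scalings Gclc and Txn1 no longer pass it in starved muscle, and Nfe2l2, Gsr and Srxn1 lie close to 0 in fed muscle.

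Some markers of other cells were also highest on the starved control array. Of 5 neutrophil markers 4 were measured, and all 4 were highest or level with the highest there, with a summed signal of 165.2, 387.2, 228.6 and 144.9. Red blood cell markers, 3 of 4 measured, summed to 78.4, 163.5, 70.6 and 92.6, and fat cell markers, 3 of 5 measured, to 4644, 5501.1, 3754.6 and 3246.3. In each of these lists 2 of the 3 measured markers were highest on the starved control array, as were 32% of all genes. Endothelial markers, 5 of 5 measured, summed to 2213.4, 2251.6, 1806.6 and 1877.9, with 2 of 5 highest there. In both feeding states 5 of 5 were lower in the knockout, as were 9793 (fed) and 8435 (starved) of all 12565 genes. Other lists did not peak on the starved control array. Highest there were 0 of 5 fibroblast, 0 of 6 slow fibre, 0 of 9 fast fibre, 2 of 9 macrophage and 2 of 5 measured epidermis markers. None of the markers was listed at 0, though the globin Hba-a1 read 1.8 to 3.1 on all arrays. Hair shaft markers ran the other way, with 39.8 on the starved control and 1449.4 on the starved knockout array against 932.3 and 98.2 on the fed control and fed knockout arrays. Their part in the signals of the 10 members was not tested.

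The members carry several probe sets, and these give the only measure of scatter that the arrays hold. For 8 of the 10 genes there was more than 1 probe set, 21 in all, of which 20 passed the filter. Probe sets were split into 5 classes of signal, and scatter was taken over genes with several probe sets in the same class. The SD of the log2 fold change in control muscle between these was 0.91 in the dimmest class and 0.39 in the next. It was then 0.28 and 0.22, and 0.16 in the brightest. Differences between bright and dim probe sets of a gene, in separate classes, are not part of this SD. In the brightest class, the log2 fold changes of Gclm, Nfe2l2, Txnrd1 and Txn1 in control muscle were 1.08, 0.48, 0.32 and 0.27. In the class below it, with an SD of 0.22, Srxn1 and Gsr were at 0.96 and 0.62, and Gclc and Keap1, at 0.23 and 0.22, were about as large as the scatter. Nqo1 at -0.06 and Hmox1 at 0.18 were smaller than the scatter of their classes, 0.28 and 0.39. Counted by probe set, 6 of 20 were up in control muscle, 15 of 20 were down in starved knockout muscle, and 17 of 20 were highest on the starved control array. Counted by gene, these were 3, 8 and 9 of 10. Probe sets of the same gene are not independent, Srxn1 alone gives 4 of the 20, and the shares over all probe sets were not computed. The scatter between probe sets holds no difference between mice.

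Across the 4 arrays, the genes whose course was most like that of Gclm were Rhpn2, Srxn1, Slc39a14 and Rassf4, at distances of 0.165, 0.172, 0.173 and 0.183. The distance is that between centred log2 signals, and 7427 genes were ranked. Srxn1, itself a member, thus came at rank 2, and Gsr at rank 116 and Nqo1 at rank 2272. For Txn1 the nearest were Ssu72, Cipc, Snx19 and Pogz, at 0.0194 to 0.0342, and Keap1 was the nearest member at rank 58. With 4 arrays many genes share a course, and the ranks describe these arrays only.

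The wider pathway was read from 5 lists, 96 genes in all, of which 80 were measured past the filter. None of the lists holds the 10 members. In control muscle 10 of the 80 were up and 9 down on starvation, where 9.23% of all genes were up and 14.2% down. In knockout muscle 2 were up and 11 down, where the shares of all genes were 7.39% and 9.45%. The median of their log2 fold changes was -0.13 for the control and -0.11 for the knockout, close to that of all genes. The starved knockout was called lower than the starved control for 17 of the 80 and higher for 3, where 14.6% of all genes were called lower and 6.39% higher.

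The partners and regulators of NRF2 had medians of 0.52 (control) and 0.03 (knockout) on the log2 scale, against 0.30 and -0.14 for the members. Of 12 measured genes, the control had 4 up and 1 down, and the knockout 0 up and 2 down. In starved muscle 7 were called lower in the knockout. On starvation Btrc was called down in both genotypes and Rbx1 in the knockout. Both genes stayed below the 75th percentile of every array. Maff, a small MAF protein that binds DNA with NRF2, rose from 66.9 to 315.9 in control muscle and read 66 (fed) and 77.1 (starved) in the knockout. Mafk, another small MAF, rose from 179.3 to 413.8 in control muscle and read 194 and 231.6 in the knockout. The third, Mafg, went from 578.5 to 815.1 in control and from 571.6 to 559.1 in knockout muscle, without a call.

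Bach1, which competes with NRF2 for the same elements, rose from 669.5 to 1037.1 in control muscle and read 606.2 and 691.2 in the knockout. Sqstm1, the autophagy adaptor p62 that also binds KEAP1, rose from 2022.5 to 3370.8 in control muscle and read 1391.4 and 1823.9 in the knockout. The study picked Sqstm1 for display as well. Gsk3b, a kinase that marks NRF2 for degradation by another ligase, was at 699.9, 1019.4, 562.6 and 538.4, with no call on starvation and a call down in starved knockout against starved control muscle. The genes named here hold both helpers and opponents of NRF2.

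None of the other NRF2 targets was called up on starvation. Of 17 measured genes, control muscle had 0 up and 1 down and knockout muscle 0 up and 3 down, with medians of -0.26 and -0.27. Tkt, an enzyme of the pentose phosphate pathway, fell from 2170.3 to 1233.1 in control and from 1322.5 to 838.2 in knockout muscle. Me1, the cytosolic malic enzyme that makes NADPH, went from 1456.3 to 972.5 in control and from 1318.3 to 1166.1 in knockout muscle, and Blvra, a biliverdin reductase, from 369.8 to 249.7 and from 272.3 to 270.7, each just short of a call. On the starved arrays 4 of the 17 were called lower in the knockout, the exporters Abcc1 and Abcc4 among them with log2 ratios of -0.78 and -0.85. Pgd, which also makes NADPH in the pentose phosphate pathway, had log2 fold changes of -0.01 in the control and -0.51 in the knockout.

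**Figure D4:**
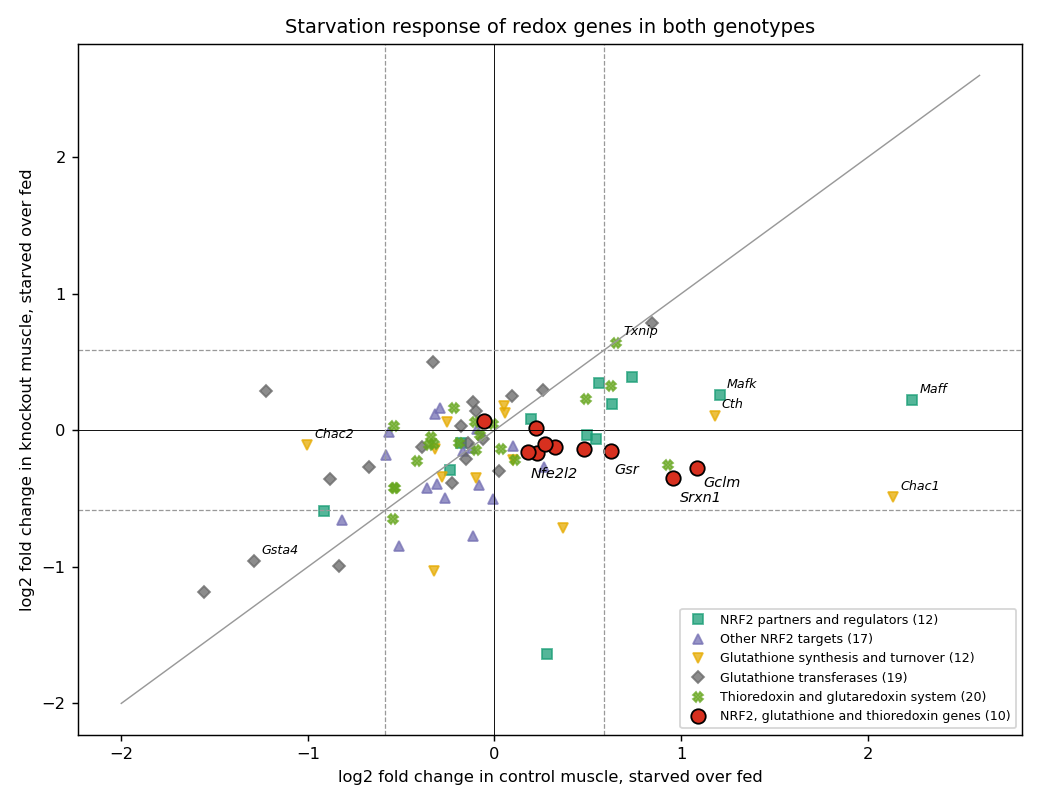
Log2 fold change of starved over fed signal in control (horizontal axis) and in knockout muscle (vertical axis) for the 10 genes (circles) and the 80 measured genes of 5 related lists (other symbols), with dashed lines at 1.5-fold and a diagonal where both genotypes respond alike. Gclm, Srxn1 and Gsr lie to the right of the upper threshold for control muscle and below 0 for knockout muscle, Txnip lies on the diagonal, and Chac1 lies farthest below it.

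Glutathione is also broken down and fed with cysteine, and here the responses were divided. Of 12 measured genes of glutathione synthesis and turnover the control had 2 up and 1 down, and the knockout 0 up and 2 down. The 2 down in the knockout, Cbs and Slc1a4, stayed below the 75th percentile of every array. Chac1, which degrades glutathione in the cytosol, rose from 805.8 to 3547.2 in control muscle and read 311.7 (fed) and 221.8 (starved) in the knockout. Its relative Chac2 fell from 1006.5 to 501.2 in control muscle and read 856.8 and 793.9 in the knockout. Cth, which releases cysteine from cystathionine, rose from 69.8 to 158.2 in control muscle, against 56.4 and 60.8 in the knockout. Oplah, Lancl1 and Glo1 were called in neither genotype, with log2 fold changes of -0.32 to 0.05 for the control and -0.14 to 0.18 for the knockout.

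Glutathione transferases, which couple glutathione to foreign and oxidised molecules, were also measured. Of 19 measured genes 1 was up and 6 were down in control muscle, and 1 was up and 3 were down in knockout muscle, with medians of -0.18 and -0.09. Over all genes, too, more were called down than up in both genotypes. Gsta3, Gstm7, Gstcd and Mgst2, among the 6 down in control muscle, stayed below the 75th percentile of every array, where scatter is wider. Gsta3 and Mgst2 were also among the 3 down in the knockout. Gsta4, which takes up products of lipid peroxidation, fell from 431.4 to 176.5 in control and from 385.8 to 198.6 in knockout muscle. Gstt2 rose in both genotypes, from 162.8 to 292.6 and from 137.3 to 237.1. Gstz1, an enzyme of tyrosine breakdown, fell from 465.1 to 292.2 in control muscle and read 294.9 and 245 in the knockout. Gstm4, Gstm5 and Gstt1 had no call, at -0.39 to -0.12 and -0.12 to 0.50 on the log2 scale. Members of this family are alike in sequence, and how far their probes share targets was not analysed here.

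In the rest of the thioredoxin and glutaredoxin system 20 genes were measured, with 3 up and 0 down in the control and 1 up and 1 down in the knockout. Txnip, which binds and inhibits thioredoxin, rose from 4418.7 to 6942.6 in control and from 4007.6 to 6255.5 in knockout muscle, log2 fold changes of 0.65 and 0.64. This contrasts with Txn1, its partner, which was called in neither genotype. Gpx3, a secreted glutathione peroxidase, rose from 1185.7 to 1825.6 in control muscle and read 557.8 and 699.8 in the knockout, which was called lower in both feeding states. Txn2, the thioredoxin of mitochondria, went from 923.5 to 636.4 in control and from 690 to 705.9 in knockout muscle, without a call. Glrx, the cytosolic glutaredoxin, fell from 459.4 to 292.6 in the knockout and went from 439.3 to 301.7 in the control, just short of a call. Nxn and Glrx5 had no call in either genotype.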

How the data were processed

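Gene expression in gastrocnemius of 4 conditions was measured on 4 Affymetrix mouse arrays, each hybridised with pooled RNA. The values deposited by the authors are intensities on a linear scale, made with MAS 5.0; Affymetrix Expression Console is also listed in the submitters' processing notes, and the scaling target is not given in the sources used here. They were used as deposited. Of 45037 probe sets other than controls, 34945 have 1 gene in the platform annotation, 932 several and 9160 none; only those with 1 gene were named, with symbols updated by gene identifier for 34741 (RefSeq table of GRCm38.p6). Probe sets below the 50th percentile of every array were left out. Where a gene had several, the one brightest on average stood for it. A signal of 0 was set to 0.1 before log2.

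Ratios were computed with Python 3.11.15, pandas 2.3.3 and numpy 2.4.6, with plots by matplotlib 3.10.9. The number of arrays limits the precision, and no test was possible. The members and the 5 pathway and 10 marker lists were chosen with earlier results of these data known. All members were described, and of each list up to 3 genes with the largest change and up to 3 others with the largest genotype difference were named if they reached an array's 75th percentile, as were the 4 genes nearest to Gclm and to Txn1. Array scaling, the filter, an offset of 16, the choice of probe set and the threshold were varied.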

Additional observations from a re-analysis of the deposited data

Results flagged for a closer look

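Gclm, Srxn1 and Gsr were up on starvation in control muscle and had starved over fed ratios below 1, without a call, in knockout muscle. The log2 fold change of the control exceeded that of the knockout by 1.36 for Gclm, 1.31 for Srxn1 and 0.77 for Gsr. With 1 array per condition this difference was not tested. When the probe sets of a gene were averaged, the log2 fold change in knockout muscle was 0.36 for Srxn1 and 0.07 for Gsr, and the other probe set of Gclm gave -0.02. The Srxn1 average includes a dim probe set at 1.75, from a fed knockout signal of 6.0, and its other probe sets gave -0.35, -0.05 and 0.10.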

How the results depend on the processing

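The values are those of single arrays of pooled RNA, so that no spread between mice is known, and dim probe sets limit what can be read. No value of a member that was called changed sign under any alternative. Of the single-member values, 359 moved by less than the scatter between probe sets and 36 by more, 16 of these when a gene's probe sets were averaged. At a threshold of 2.0, 1 member was up in control muscle, as were 3.73% of all genes. The same count, 1, was up in control and under the threshold in knockout muscle. In fed knockout against fed control 0 were called, where 3.56% of all genes were down and 1.74% up. In starved knockout against starved control 3 were called, all down, where 4.53% of all genes were down and 3.02% up. With the mean over probe sets, 3 were called in the fed comparison, where 11.6% of all genes were down and 3.91% up. With the 75th percentile filter 0 of 9 were called, since Hmox1 no longer passed, where 5.38% of all genes were down and 0.58% up. The mean over probe sets also ended the call of Gsr in control muscle (log2 0.49) and of Gclc in starved knockout (-0.52). It brought the genotype difference of Srxn1 to 0.38 and that of Gsr to 0.42. For Srxn1 this mean includes a dim probe set with a difference of -1.61 and a fed knockout signal of 6.0. Its other probe sets gave differences of 1.31, 1.19 and 0.62. The mean over probe sets left 7 of the 10 members with a log2 fold change above 0 in control muscle and 7 highest on the starved control array. Scaling to the same median brought the difference of Nfe2l2 to 0.58, just under the threshold. An offset of 16 brought Txn1 in starved knockout to -0.58. With scaled arrays Gclc stood at -0.57 to -0.58 and Txn1 at -0.40 to -0.43 there. No paired analysis was possible because each condition has 1 array.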
